A study of Mus musculus with 33 samples.

Results

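Mouse mammary organoids with floxed alleles of Trps1, taken on day 14 after the alleles were recombined, were compared with organoids that kept Trps1. The members are 4 RNA-seq libraries of 33 in the series: 2 of genotype Cdh1F/F;Trps1F/F and 2 of genotype Cdh1F/F;Trps1+/+, chosen by genotype and day and not by any measured value. All of them were primary mammary organoids that had been transduced with AdCre, an adenovirus that carries the Cre recombinase, and harvested 14 days later. Both genotypes carry the floxed Cdh1 alleles, so the control organoids are also a Cdh1 model and no library of the comparison has an unmodified Cdh1 gene. The 2 groups are called Trps1F/F and Trps1+/+ below. Where values outside these 4 libraries are given, they come from the same genotypes at day 28 (2 libraries each) or from Cdh1+/F;Trps1F/F organoids at day 14 (2 libraries), which carry 1 floxed and 1 wild-type Cdh1 allele and were transduced likewise. AdCre recombines the alleles of the cells it enters, and the labels do not give the share of cells reached. They also do not say whether 2 libraries of a group were separate cultures or mice, so every p-value below rests on a spread between samples that may be purely technical.

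TRPS1 is a zinc finger protein of the GATA family that binds GATA sites in DNA and acts mainly as a repressor, in part by recruiting histone deacetylases through corepressor complexes. In the mammary gland it is found in the epithelium, as is its relative GATA3. E-cadherin, the product of Cdh1, holds epithelial cells together through adherens junctions, where catenins tie it to actin. Mammary organoids in Matrigel keep luminal cells, which line the lumen and can make milk proteins, and basal cells, which are contractile and touch the matrix. Pieces of gland put into culture can also carry over fibroblasts, macrophages and other stromal cells.

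Levels are given on the scale of the deposited values, log2(normalized count + 1), and are called log2 levels. Differences are Trps1F/F minus Trps1+/+ on that scale, with the standard error (SE) of a limma model fitted to all 12 organoid libraries. A gene was called at a Benjamini-Hochberg adjusted p under 0.05, and "rose" and "fell" are used only of called genes. Trps1 (chromosome 15, 50654752 to 50890463, GRCm38) stood at log2 levels of 13.59 and 13.51 in the Trps1+/+ libraries and 11.39 and 11.27 in the Trps1F/F libraries. It fell by 2.22 (SE 0.182, limma adjusted p = 1.96e-06), that is 4.67-fold, and 5384 reads remained in the Trps1F/F libraries against 25485 in the Trps1+/+ libraries. In the Cdh1+/F;Trps1F/F libraries its mean was 9.74, lower still. Exons that the recombination leaves in place can still be transcribed, so whole-gene counts check the genotype only in part. Cdh1 (chromosome 8) stood at 13.09 and 13.08 in Trps1+/+ and 13.60 and 13.58 in Trps1F/F, a rise of 0.51 (SE 0.0867, limma adjusted p = 0.000631), and its counts do not show the recombination.

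The 4 libraries held 21116526 to 23529391 reads, and 1.71% to 2.33% of their reads were mitochondrial. Libraries of the same group differed more than counting alone allows: chi-square divided by its degrees of freedom was 10.1 for Trps1+/+ and 7.86 for Trps1F/F. The median log2 level over all genes with the deposited scaling was 6.04 and 6.06 in Trps1+/+ and 5.69 and 5.76 in Trps1F/F. Markers of luminal epithelium, summed, made up 0.580% and 0.637% of reads in Trps1+/+ and 0.906% and 0.886% in Trps1F/F. Basal markers made up 0.821% and 0.815% in Trps1+/+ and 0.986% and 0.945% in Trps1F/F, and no member of either list was at 0 in any of the 4 libraries, as the labelled tissue should have them. Fibroblast markers made up 0.526% and 0.572% in Trps1+/+ and 0.154% in each Trps1F/F library. Skeletal muscle markers made up 0.0784% and 0.102% in Trps1+/+ and 0.0247% and 0.0265% in Trps1F/F. Macrophage markers made up 0.0892% and 0.0895% in Trps1+/+ and 0.0444% and 0.0467% in Trps1F/F. Lymphocyte markers were near 0 in all 4 libraries, with 8 or 9 of 18 members at 0. The Trps1F/F libraries thus had lower summed shares for the fibroblast, skeletal muscle and macrophage lists and higher ones for the luminal and basal lists. The basal sum does not speak for its members, of which 8 of 24 tested rose and 6 fell (median difference 0.04). In bulk RNA, fewer cells of a type and less RNA per cell cannot be told apart. With 2 libraries against 2, an exact permutation test of a summed level cannot pass, so these sums are given without one.

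**Figure D1:**
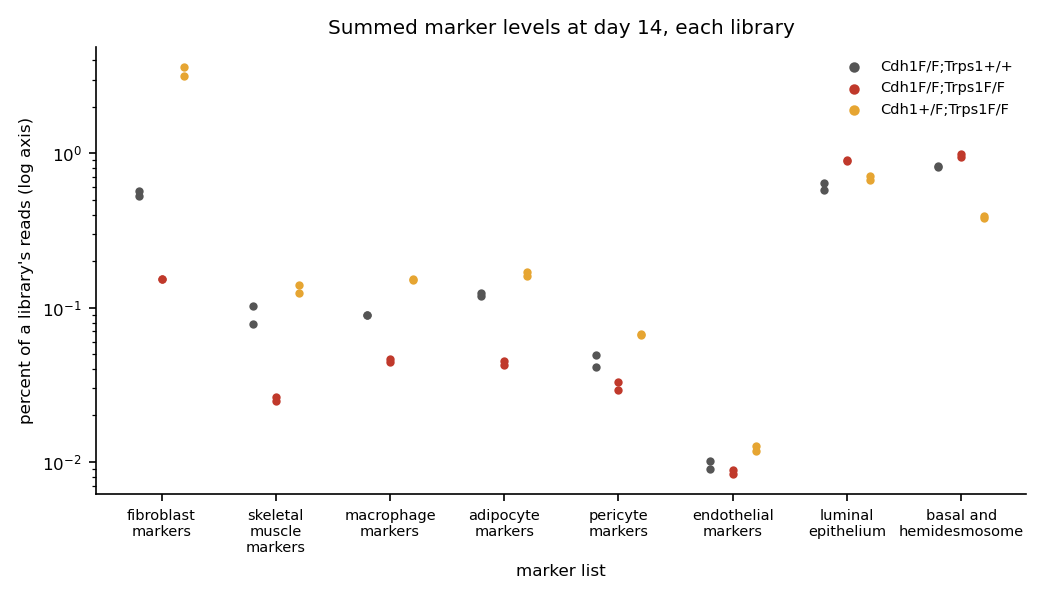
Summed levels of cell type marker lists at day 14 as percent of a library's reads, on a log axis. Each point is 1 library, dark for Cdh1F/F;Trps1+/+, red for Cdh1F/F;Trps1F/F and orange for Cdh1+/F;Trps1F/F. The red points lie below the dark ones for the fibroblast, skeletal muscle, macrophage, adipocyte and pericyte lists. For the luminal and basal lists the red points lie above the dark ones. The orange points are the highest for the fibroblast (3.60% and 3.17%), skeletal muscle, macrophage, adipocyte, pericyte and endothelial lists.

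The promoters of 5 genes are shown first, to give the sequence context of 3 results below: 1 of a pair of neighbouring genes with the largest rises, and 2 gene groups whose members fell together. Sequences are those of RefSeq on GRCm38.p6, each the 250 bases before the annotated start, on the strand of the gene. In the first sequence the capitals mark GATAA, the core of a GATA site, which stood once in the window, 26 bases before the start of Clca3a1, counted from the first base of the match. Of 32851 RefSeq promoter windows of this length, 22.6% held GATAA on either strand, so a match is common.
Clca3a1 (chr3:144760978-144761227, minus strand): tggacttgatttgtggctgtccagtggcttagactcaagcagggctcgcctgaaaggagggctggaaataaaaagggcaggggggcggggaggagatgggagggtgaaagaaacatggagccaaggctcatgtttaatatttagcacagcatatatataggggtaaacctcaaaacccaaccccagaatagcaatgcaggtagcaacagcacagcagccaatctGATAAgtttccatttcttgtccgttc
In the next pair the capitals mark the ER stress response element, searched as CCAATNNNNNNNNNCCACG on both strands, of which only the fixed letters are capitalised. It stood 65 bases before the start of Hspa5, and 212 and 107 bases before that of Hsp90b1, the latter on the opposite strand. This element is the site through which ATF6 and its partner NF-Y act on chaperone genes, and 0.113% of all windows held it.
Hspa5 (chr2:34771840-34772089, plus strand): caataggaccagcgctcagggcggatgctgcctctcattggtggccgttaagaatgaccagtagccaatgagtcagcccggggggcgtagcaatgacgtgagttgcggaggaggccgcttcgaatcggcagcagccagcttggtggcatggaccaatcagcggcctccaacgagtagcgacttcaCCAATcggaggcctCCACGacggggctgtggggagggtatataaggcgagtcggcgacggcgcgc
Hsp90b1 (chr10:86705445-86705694, minus strand): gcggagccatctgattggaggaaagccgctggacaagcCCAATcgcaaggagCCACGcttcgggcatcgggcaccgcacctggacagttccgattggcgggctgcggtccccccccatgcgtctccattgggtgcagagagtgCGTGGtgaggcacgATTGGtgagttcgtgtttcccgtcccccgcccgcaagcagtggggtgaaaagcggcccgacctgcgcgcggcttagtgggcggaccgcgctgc
In the last pair the capitals mark GAAANNGAAA, the core of an interferon-stimulated response element, on either strand. Ifit1 held it 104 and 85 bases before its start, on the opposite strand, and Isg15 held 3 overlapping copies, 78, 72 and 66 bases before its start. Of all windows, 2.98% held it.
Ifit1 (chr19:34640639-34640888, plus strand): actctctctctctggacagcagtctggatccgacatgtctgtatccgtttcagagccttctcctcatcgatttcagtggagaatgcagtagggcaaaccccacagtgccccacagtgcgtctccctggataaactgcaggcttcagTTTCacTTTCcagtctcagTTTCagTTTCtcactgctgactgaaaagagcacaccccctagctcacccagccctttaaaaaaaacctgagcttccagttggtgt
Isg15 (chr4:156200819-156201068, minus strand): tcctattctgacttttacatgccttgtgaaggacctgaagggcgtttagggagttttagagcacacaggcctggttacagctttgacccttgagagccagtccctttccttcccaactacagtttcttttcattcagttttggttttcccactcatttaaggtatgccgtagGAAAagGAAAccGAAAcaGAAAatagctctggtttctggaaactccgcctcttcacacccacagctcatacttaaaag
A match of letters is a description and shows neither binding nor a cause.

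At day 14, 2306 genes rose and 2839 fell among 15860 tested, which is 14.5% and 17.9% of all tested genes. These shares are the background for every gene list below. Falls were more often large than rises at moderate sizes: 1495 genes fell at least 2-fold and 546 rose at least 2-fold. At 8-fold or more the order was turned, with 64 rises and 43 falls. The median difference over all tested genes was -0.01, and 44.8% of the calls were rises (50.1% when the libraries were quantile normalized). Without Trps1F/F replicate 1, 3330 genes were called in all, against 5145, and no call turned its direction.

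**Figure D2:**
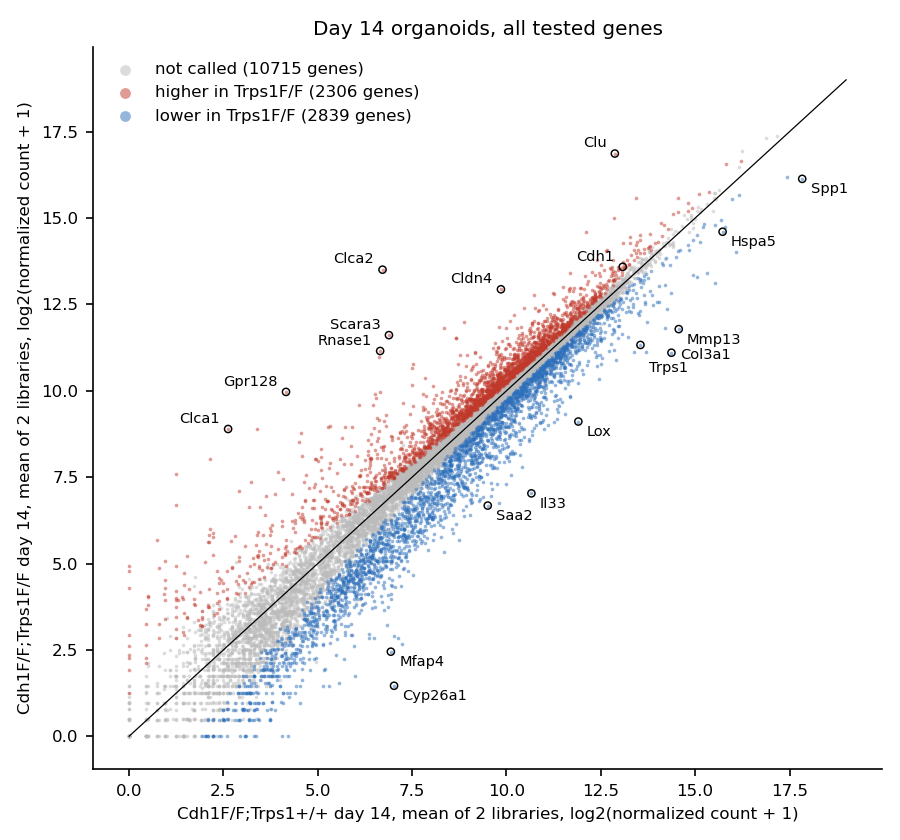
Mean log2 level of each tested gene at day 14 in the 2 Cdh1F/F;Trps1+/+ libraries (horizontal) and the 2 Cdh1F/F;Trps1F/F libraries (vertical), both as log2(normalized count + 1). Red and blue points are the 2306 genes that rose and the 2839 that fell, grey points were not called, and the line marks equal levels. Clca2, Clca1 and Gpr128 lie farthest above the line among the labelled genes, and Cyp26a1 and Mfap4 farthest below it.

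The largest rises were in a pair of neighbouring genes of the calcium-activated chloride channel regulator family, secreted and membrane-bound proteins of mucosal epithelia. The table lists them under older symbols: its Clca2 is the gene now named Clca3a2 (chromosome 3, 144796559 to 144819494) and its Clca1 is the one now named Clca3a1 (chromosome 3, 144729677 to 144760977). They are Clca3a2 and Clca3a1 below. Clca3a2 stood at 6.93 and 6.50 in Trps1+/+ and 13.57 and 13.44 in Trps1F/F, a rise of 6.79 (SE 0.216, limma adjusted p = 7.36e-10) or 111-fold. Clca3a1 stood at 2.80 and 2.45 in Trps1+/+ and 8.81 and 8.98 in Trps1F/F, a rise of 6.27 (SE 0.354, limma adjusted p = 8.54e-08) that rests on 11 reads in Trps1+/+ and 995 in Trps1F/F. Their open reading frames are 97.1% identical over 2709 bases, and 29.5% of the 50-base windows of one are found in the other, so reads of the pair may be split between them and the value of the less abundant copy is uncertain. A further member of the family moved the other way: the gene now named Clca2, listed as Clca5, stood at 8.95 and 8.11 in Trps1+/+ and 6.96 and 6.75 in Trps1F/F (fell by 1.68, limma adjusted p = 0.0106), a call that was lost without Trps1+/+ replicate a (-1.26) or Trps1F/F replicate 2 (-1.58).

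Gpr128, an orphan adhesion G protein-coupled receptor now named Adgrg7 (chromosome 16, 56724609 to 56795855), stood at 4.39 and 3.93 in Trps1+/+ and 9.88 and 10.06 in Trps1F/F (difference 5.81, SE 0.358, limma adjusted p = 1.80e-07). Scara3, a scavenger receptor of the class A family (chromosome 14, 65919394 to 65953935), stood at 6.75 and 7.02 and at 11.60 and 11.62 (4.72, SE 0.131, 3.29e-10). Clu, which encodes the secreted chaperone clusterin (chromosome 14, 65968483 to 65981547), stood at 12.78 and 12.96 and at 16.83 and 16.90 (3.99, SE 0.113, 3.29e-10). In each of these 3 genes the 2 Trps1F/F libraries lay within 0.2 of each other and far above both Trps1+/+ libraries. Rnase1, a secreted ribonuclease, rose by 4.50 and Lipk, an epidermal lipase, by 4.35. Further genes of lipid and drug oxidation rose: Cyp2b19 by 3.68, Alox12e by 3.51 and Cyp2d9 by 3.40. Jam2, a junctional adhesion molecule, stood at 8.48 and 8.23 in Trps1+/+ and 11.79 and 11.87 in Trps1F/F (3.47, SE 0.0996, 3.29e-10). Synpr, a synaptic vesicle protein, rose by 3.66, Fyb, an adaptor of immune cell receptors, by 3.32, Col28a1, a beaded-filament collagen, by 3.26, and Pmaip1, the BH3-only death protein NOXA, by 3.25. These 15 genes had the largest called rises among genes whose Trps1F/F mean exceeded 8.84, the median level over tested genes.

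The largest falls chosen the same way were led by Il33, an alarmin cytokine stored in the nucleus of epithelial and stromal cells (chromosome 19, 29925114 to 29960718). It stood at 10.81 and 10.51 in Trps1+/+ and 6.82 and 7.24 in Trps1F/F, a fall of 12.4-fold (difference -3.63, SE 0.173, limma adjusted p = 2.40e-08). Its level in the Cdh1+/F;Trps1F/F libraries was 10.85 and 11.06. Col3a1, the chain of type III collagen (chromosome 1, 45311538 to 45349706), stood at 14.04 and 14.70 in Trps1+/+ and 11.19 and 11.02 in Trps1F/F (-3.27, SE 0.182, 7.73e-08). Coch, the matrix protein cochlin, fell by 3.05 and Saa2, an acute phase serum amyloid, by 2.83. Lox, which crosslinks collagen and elastin, stood at 11.82 and 11.99 and at 8.98 and 9.24 (-2.79, SE 0.118, 8.91e-09), and Mmp13, a collagenase (chromosome 9, 7272514 to 7283331), at 14.65 and 14.48 and at 11.54 and 12.03 (-2.78, SE 0.130, 2.04e-08). Slc28a3, a nucleoside carrier, fell by 2.67, Dpep1, a dipeptidase, by 2.63, and Plac8 by 2.63. Col1a2 fell by 2.57, the neutrophil chemokine Cxcl5 by 2.56, Tnfaip6, a hyaluronan-binding protein, by 2.49, the proteoglycan Podn by 2.46 and the calcium-binding S100a8 by 2.46. Of these, Col3a1, Col1a2 and Dpep1 are on the fibroblast marker list, whose summed share of reads fell from 0.526% and 0.572% to 0.154% in each Trps1F/F library, and the part of this in the falls was not tested.

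**Figure D3:**
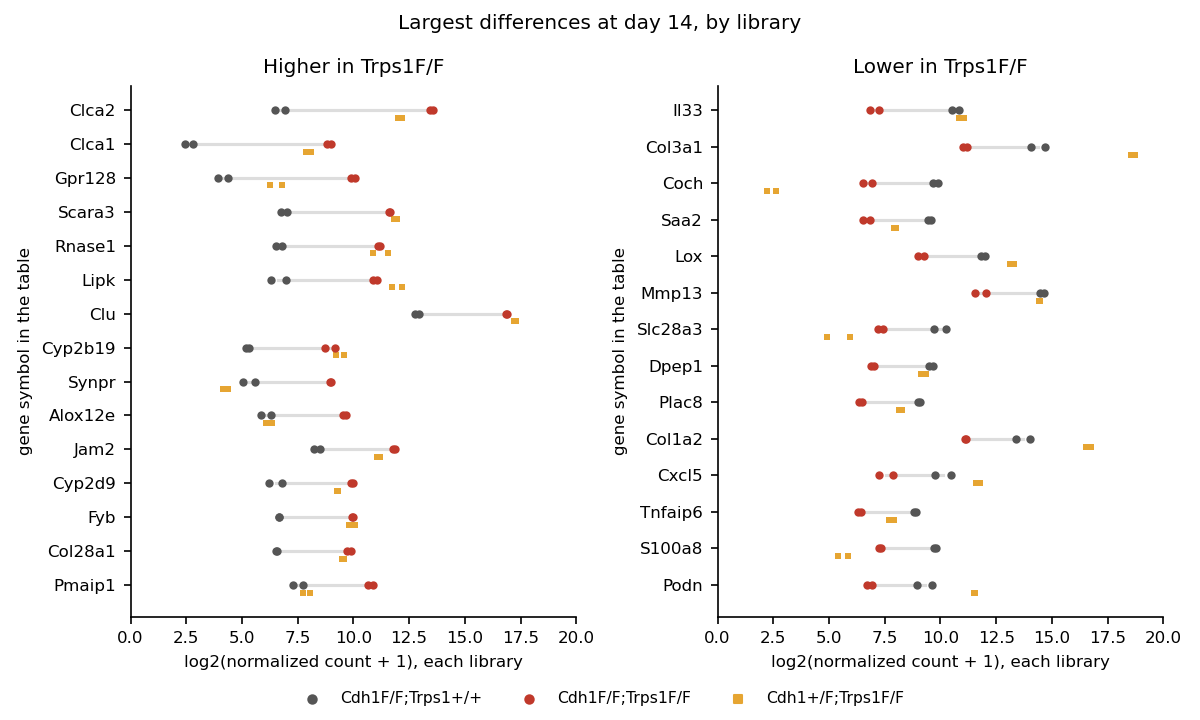
The 15 largest rises (left) and 14 of the 15 largest falls (right) at day 14, as log2(normalized count + 1) in each library, dark for Cdh1F/F;Trps1+/+, red for Cdh1F/F;Trps1F/F and orange squares for Cdh1+/F;Trps1F/F. Grey lines join the means of the dark and red points, which do not overlap for any gene shown. The orange squares lie beside the red points for some genes (Clu, Scara3, Fyb) and beside or beyond the dark points for others (Pmaip1, Il33, Col3a1).

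Luminal, tight junction and desmosome genes were mostly higher in Trps1F/F, while cadherins and catenins were split. Of 29 tested members of the luminal list, 24 rose and 2 fell, with a median difference of 0.61, against 14.5% rises and a median of -0.01 over all tested genes. Among them, the adhesion protein gene Epcam stood at 13.30 and 13.27 in Trps1+/+ and 14.29 and 14.28 in Trps1F/F (difference 1.00, SE 0.0832, limma adjusted p = 2.14e-06). The surface protein gene Prom1 rose by 1.27 and Ovol1, an epithelial zinc finger factor, by 1.29. The surface proteases St14 (matriptase) and Prss8 (prostasin) rose by 0.85 and 0.89, and their inhibitor Spint1 by 0.77. Against the direction of the list, the luminal keratin Krt19 stood at 13.11 and 13.61 and at 12.60 and 12.42 (fell by 0.86, limma adjusted p = 0.00234). Cd14, which is also on the macrophage list, likewise fell, by 0.28, a call lost without Trps1+/+ replicate b (-0.24) or Trps1F/F replicate 2 (-0.26).

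Of 27 tested tight junction genes, 18 rose and 3 fell (median 0.57). The claudin Cldn4, which limits sodium passage between cells, stood at 9.76 and 9.94 in Trps1+/+ and 12.94 and 12.93 in Trps1F/F (difference 3.08, SE 0.103, limma adjusted p = 1.08e-09), an 8.48-fold rise. Other proteins of the junction rose by smaller steps: occludin (Ocln) by 1.01, Marveld2 by 0.90, and the polarity proteins Pard6b and Crb3 by 1.22 and 1.18. The 3 falls were the endothelial claudin Cldn5, with 30 reads in Trps1+/+ and 9 in Trps1F/F, Cldn15 (fell by 1.19) and the pore-forming Cldn2 (fell by 0.86). The Cldn15 call was lost without any 1 of the 4 libraries (-0.96 to -1.42), and that of Cldn5 without any 1 of them but Trps1F/F replicate 2 (-0.78 to -1.97). Desmosome genes rose in 10 of 15 and fell in 2. The plaque proteins Pkp1, Ppl and Pkp4 rose by 1.41, 1.07 and 0.91, and the desmosomal cadherin Dsc2 by 0.95. The cadherins Dsc3 and Dsg1a fell by 0.62 and 1.14, but Dsc3 was not called without Trps1+/+ replicate a (-0.49), nor Dsg1a without that library (-0.84), Trps1F/F replicate 1 (-1.04) or Trps1F/F replicate 2 (-1.25). Of 21 tested cadherins and catenins 8 rose and 6 fell, with a median of 0.06. Here beta-catenin (Ctnnb1) stood at 14.57 and 14.51 in Trps1+/+ and 15.58 and 15.56 in Trps1F/F (1.03, SE 0.0905, 3.39e-06), p120-catenin (Ctnnd1) rose by 0.74, and the nectins listed as Pvrl2 and Pvrl4 rose by 1.08 and 0.80. The 6 falls were those of Cdh11 (0.94), Cdh13 (1.33), Cdh6 (1.87), the neural catenin Ctnnd2 (1.71), Cdh2 (0.47) and Cdh17 (1.82). Cdh2 was not called without Trps1F/F replicate 2 (-0.39), nor Cdh17 without Trps1+/+ replicate a (-1.97), Trps1+/+ replicate b (-1.67) or Trps1F/F replicate 2 (-1.06). The summed luminal share of reads given above is the sum of the luminal list itself, so the 2 are not separate observations. The part of that share in the tight junction and desmosome lists was not tested.

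**Figure D4:**
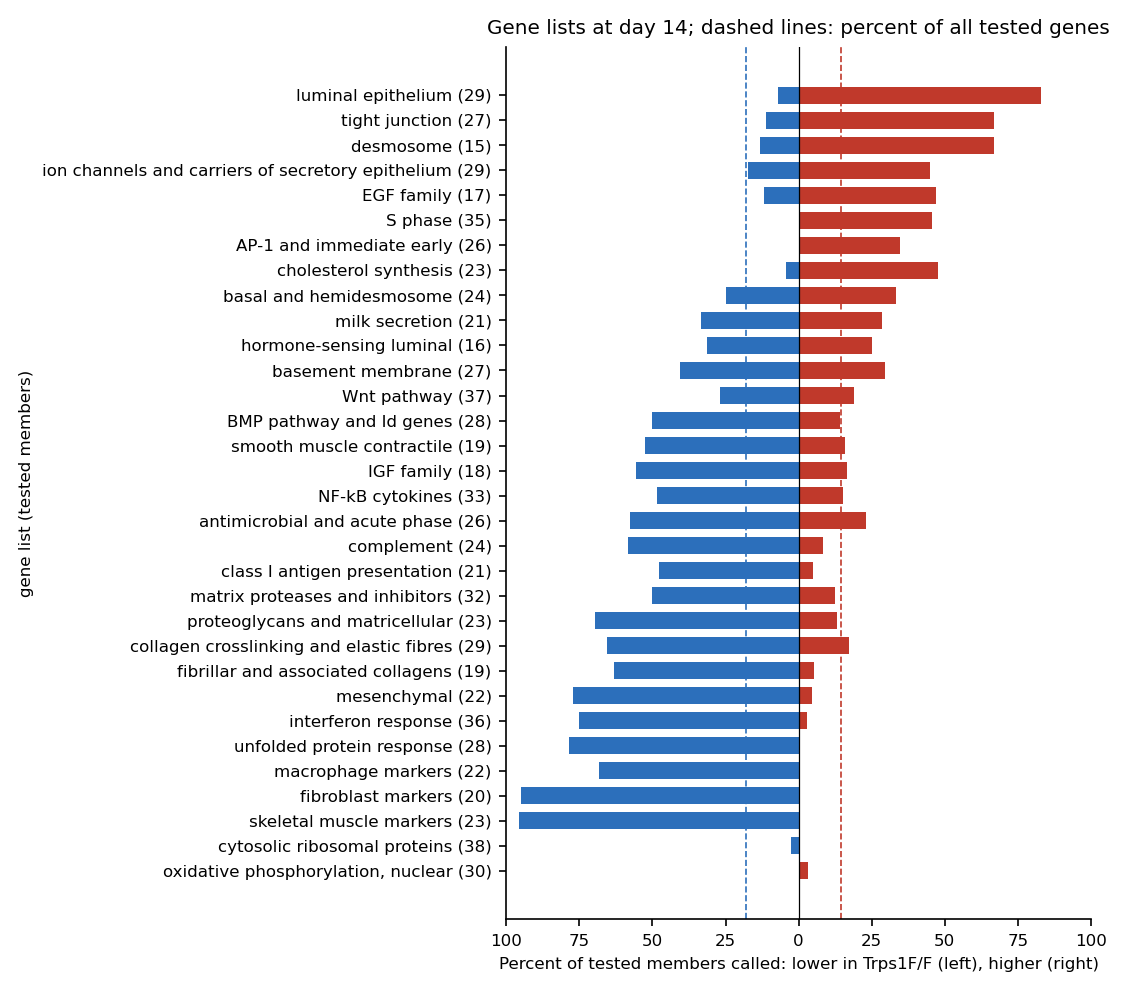
Percent of the tested members of each gene list that were called at day 14, higher in Trps1F/F to the right in red and lower to the left in blue, with the number of tested members in brackets. Dashed lines mark the shares over all tested genes, 14.5% and 17.9%. The luminal list reaches farthest to the right (24 of 29) and the skeletal muscle and fibroblast lists farthest to the left (22 of 23 and 19 of 20).

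Basal genes moved in both directions. Of 24 tested members, 8 rose and 6 fell, with a median of 0.04, which turned to -0.01 with quantile normalization and to -0.04 without Trps1F/F replicate 1. The keratin Krt17 stood at 11.16 and 11.33 in Trps1+/+ and 12.83 and 12.76 in Trps1F/F (1.54, SE 0.150, limma adjusted p = 7.57e-06). The hemidesmosome integrin subunit Itgb4 rose by 0.52 and its cytoplasmic linker Dst fell by 0.58. The basal keratin Krt15 fell by 1.18, Egfr by 0.92, and the receptors Procr and Lgr5, used as markers of basal stem cells, by 1.11 and 0.96. Smooth muscle contractile genes, which myoepithelium uses, fell in 10 of 19 and rose in 3. Here the members split: Des, Myh11 and Tagln fell by 1.82, 1.33 and 1.00, while Acta2 rose by 0.66 (10.19 and 10.41 in Trps1+/+, 10.93 and 10.98 in Trps1F/F), Lmod1 by 1.02 and Actn1 by 0.54. The summed share of this list was 0.202% and 0.209% in Trps1+/+ and 0.212% in each Trps1F/F library. Among its members, Des is also on the skeletal muscle and pericyte marker lists.

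Genes of luminal secretion moved in both directions. Of 21 tested milk genes, 7 fell and 6 rose. The milk protein genes named did not move together: Csn3 fell from 12.60 and 12.46 to 10.94 in each Trps1F/F library (-1.59, SE 0.153, limma adjusted p = 6.79e-06), Csn1s1 by 1.67 and Lalba by 1.97, while the beta-casein gene Csn2 rose by 1.17 (29 reads in Trps1+/+, 64 in Trps1F/F), a call lost without Trps1+/+ replicate a (0.82), Trps1F/F replicate 1 (1.15) or Trps1F/F replicate 2 (1.19). Among the 6 rises was Btn1a1, which encodes the milk fat globule protein butyrophilin. It stood at 10.04 and 10.77 in Trps1+/+ and 11.71 and 11.66 in Trps1F/F (1.28, SE 0.176, limma adjusted p = 0.000123). Cidea, a lipid droplet protein, rose by 2.57. The feedback genes of prolactin and STAT5 signalling Cish and Socs2 rose by 0.97 and 0.81. Ion channels and carriers rose in 13 of 29 and fell in 5 (2 without Trps1+/+ replicate a or Trps1F/F replicate 2, 3 without Trps1F/F replicate 1). Besides the chloride channel regulators, the potassium channel Kcnq1 stood at 6.39 and 6.53 in Trps1+/+ and 9.69 and 9.51 in Trps1F/F (3.14, SE 0.135, 9.43e-09). The calcium-gated chloride channel Ano1 rose by 0.84, the potassium channel Kcnn4 by 1.23 and the monocarboxylate carrier Slc5a8 by 1.38, while the carbonic anhydrase Car2 fell by 1.09.

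In the hormone-sensing luminal list 4 of 16 members rose (2 without Trps1F/F replicate 1) and 5 fell. The pioneer factor Foxa1 fell by 2.30 and the RANK ligand Tnfsf11 by 1.39, while the estrogen target Greb1 rose by 0.81, a call lost without Trps1+/+ replicate a (0.74) or Trps1F/F replicate 1 (0.76). EGF family genes rose in 8 of 17 and fell in 2 (1 without Trps1+/+ replicate b or Trps1F/F replicate 2). The ligand Epgn rose by 1.59, and of the receptors Erbb4 rose by 2.05, Erbb3 by 0.87 and Erbb2 by 0.58, while Egfr stood at 12.57 and 12.36 in Trps1+/+ and 11.57 and 11.51 in Trps1F/F (-0.92, SE 0.0869, limma adjusted p = 5.93e-06). All 3 receptors that rose thus differed in direction from the remaining one.

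Matrix genes were lower in Trps1F/F across fibrillar collagens, their processing enzymes, proteoglycans and proteases. Of 19 tested fibrillar and associated collagens 12 fell and 1 rose, with a median of -1.38. Col1a1 stood at 11.96 and 12.92 in Trps1+/+ and 10.35 and 10.31 in Trps1F/F (-2.12, SE 0.257, limma adjusted p = 4.42e-05), and Col5a2 fell by 1.89, Col12a1 by 1.11 and Col11a1 by 1.17. The exception was Col14a1, at 7.13 and 7.96 and at 8.32 and 8.36 (0.80, limma adjusted p = 0.0298), and its call was lost without Trps1+/+ replicate a (0.39), Trps1F/F replicate 1 (0.82) or Trps1F/F replicate 2 (0.78). Summed, these 19 genes made up 0.388% and 0.512% of reads in Trps1+/+ and 0.158% and 0.148% in Trps1F/F. In the Cdh1+/F;Trps1F/F libraries the sum was 3.75% and 3.29%, so the 2 genotypes with floxed Trps1 lay on opposite sides of the Trps1+/+ libraries.

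Of 29 crosslinking and elastic fibre genes 19 fell and 5 rose. The collagen hydroxylases Plod1, Plod2 and P4ha1 fell by 1.16, 1.20 and 1.30, and the microfibril gene Mfap4 by 4.49, with 263 reads in Trps1+/+ and 10 in Trps1F/F. The 5 rises were Ltbp4 (1.03), Fbln5 (0.99), Loxl3 (0.90), Bmp1 (0.69) and Loxl4 (0.54), which are elastic fibre and collagen processing genes. Proteoglycan and matricellular genes fell in 16 of 23 and rose in 3. Biglycan (Bgn) stood at 15.04 in both Trps1+/+ libraries and 13.28 in both Trps1F/F libraries (-1.75, SE 0.116, 3.42e-07). Osteopontin (Spp1), a secreted phosphoprotein of secretory epithelium and bone, stood at 17.87 and 17.80 and at 16.16 and 16.10 (-1.70, SE 0.156, 4.78e-06). Lumican (Lum) fell by 2.22 and Ctgf, now named Ccn2, by 1.13. Thrombospondin 1 (Thbs1) went the other way, from 12.88 and 12.83 to 14.95 and 15.08 (2.16, SE 0.111, 4.39e-08), as did versican (Vcan, 1.00) and Fmod (1.57, from 26 to 81 reads), the last not called without Trps1+/+ replicate b (1.40) or Trps1F/F replicate 2 (1.36).

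Of 32 matrix proteases and inhibitors 16 fell and 4 rose. Besides Mmp13, the metalloproteases Adamts5 and Adamts12 fell by 1.44 and 1.69. The inhibitor of metalloproteinases Timp3 stood at 13.51 and 13.34 and at 15.45 and 15.68 (2.14, SE 0.172, limma adjusted p = 1.68e-06), and the membrane protease Mmp15 rose by 1.29. Basement membrane genes split by chain, with 11 of 27 falling and 8 rising (5 rising without Trps1+/+ replicate a or Trps1F/F replicate 1). The chains Lama4, Lama2 and Lamb1 fell by 1.47, 1.80 and 1.22, while the epithelial chain Lama5 rose by 0.65 and Frem2, a protein of the epithelial basement membrane, stood at 8.83 and 8.94 and at 12.01 and 11.95 (3.10, SE 0.0944, 5.35e-10).

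Of the markers of other cell types, 19 of 20 tested fibroblast markers, 22 of 23 skeletal muscle markers and 15 of 22 macrophage markers fell and none rose, with medians of -1.52, -1.82 and -1.29. The remaining lists moved less uniformly. Endothelial markers fell in 6 of 18 (3 without Trps1F/F replicate 1) and rose in 2, pericyte markers fell in 5 of 9 and rose in 2 (1 or 0 with a library left out), and adipocyte markers fell in 6 of 16 and rose in 1 (0 without Trps1+/+ replicate a or either Trps1F/F library). Glia and nerve markers rose in 5 of 12 and fell in 4, and their summed share of reads was higher in Trps1F/F, at 0.103% and 0.096% against 0.0566% and 0.0604%. Among the muscle genes, titin (Ttn) stood at 9.82 and 10.05 in Trps1+/+ and 7.87 and 8.03 in Trps1F/F (-1.98, SE 0.140, limma adjusted p = 5.68e-07), and among the macrophage genes Mpeg1 stood at 10.37 and 10.32 and at 8.34 and 8.57 (-1.90, SE 0.184, 7.41e-06). Mesenchymal genes fell in 17 of 22 and rose in 1, with Prrx1 at 11.42 and 11.24 and at 9.39 and 9.57 (-1.85, SE 0.124, 3.67e-07), Zeb1 and Zeb2 down by 1.71 and 1.38 and Twist1 by 1.67. Nt5e, which encodes the nucleotidase CD73, was the mesenchymal gene that rose (1.48). A separate list of transcription factors of epithelial to mesenchymal transition, which shares Prrx1, Zeb1, Zeb2 and Twist1 with the mesenchymal list, had 6 falls and 3 rises among 15 tested members (median -0.40), and the rises were Sox9, Sox10 and Sox4, by 0.87, 0.79 and 0.62. The fibroblast list shares Col1a1, Col1a2, Col3a1 and Lum with the matrix lists, and Fap, Thy1 and Pdgfrb with the mesenchymal list, among others. The falls of these lists are thus not fully separate observations. How far the other lower matrix and mesenchymal levels go with the lower stromal marker levels was not tested.

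Inflammatory and antiviral genes were lower in Trps1F/F. Of 36 interferon response genes 27 fell and 1 rose, with a median of -0.72. Ifit1 stood at 9.60 and 9.30 in Trps1+/+ and 7.88 and 7.80 in Trps1F/F (-1.61, SE 0.205, limma adjusted p = 6.42e-05), Isg15 at 9.94 and 10.01 and at 8.95 and 8.94 (-1.03, SE 0.107, 1.27e-05), and Ifit2 fell by 1.84, Ifi44 by 1.34 and Oasl2 by 0.93. Isg20, an exonuclease, rose by 0.56, but was not called without Trps1+/+ replicate a (0.38), Trps1F/F replicate 1 (0.59) or Trps1F/F replicate 2 (0.53). Of 26 members with a promoter in the RefSeq table, 10 held the element shown above for Ifit1 and Isg15 (38.5%), against 936 of 27025 genes in the table (3.46%). Members were chosen as interferon response genes and counted whether or not they fell, so this share describes the list and not the fall. In class I antigen presentation 10 of 21 genes fell (6 without Trps1F/F replicate 1) and 1 rose: the coactivator Nlrc5 fell by 1.06, the light chain B2m by 0.76 and H2-K1 by 0.49, and Tapbpl, a peptide editor, rose by 1.40.

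Complement genes fell in 14 of 24 and rose in 2. C3, the central component, stood at 14.98 and 14.88 in Trps1+/+ and 13.43 and 13.28 in Trps1F/F (-1.58, SE 0.106, limma adjusted p = 3.86e-07), and the proteases C1ra and C1s1 fell by 1.17 and 1.00. The membrane regulator Cd59a rose by 0.99 and the protease Cfi by 1.85. Of 33 NF-kB cytokine genes 16 fell and 5 rose, with Vcam1 down by 1.17. The chemokine Cxcl16 stood at 10.11 and 10.06 and at 11.99 and 12.08 (1.95, SE 0.104, 5.64e-08), and the feedback inhibitors Tnfaip3 and Nfkbia rose by 0.79 and 0.51, the latter not called without Trps1+/+ replicate b (0.45) or Trps1F/F replicate 2 (0.44). Antimicrobial and acute phase genes fell in 15 of 26 and rose in 6. Lysozyme (Lyz2), also a macrophage marker, fell by 1.67 and the lectin Reg3g by 4.56 (318 reads in Trps1+/+, 13 in Trps1F/F), while lactoferrin (Ltf) rose by 2.00, Wfdc2 by 2.05, the lipopolysaccharide-binding protein Lbp by 1.12, the immunoglobulin receptor Pigr by 1.04 and Orm1 by 2.99. The list thus held both directions. C3, Lyz2, Vcam1 and Reg3g were higher in the Cdh1+/F;Trps1F/F libraries (means 15.24, 13.81, 10.84 and 11.52) than in Trps1+/+. Over whole lists, the median difference of Cdh1+/F;Trps1F/F from the same Trps1+/+ libraries was 1.16 for complement, 0.03 for NF-kB cytokine and 0.09 for antimicrobial genes. For interferon response genes it was -1.25 and for class I genes -0.48, so these lists were lower there too. Macrophage and fibroblast marker shares were lower in Trps1F/F, as given above, and their part in the falls of inflammatory and antiviral genes was not tested.

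Chaperones of the endoplasmic reticulum fell together. Of 28 genes of the unfolded protein response 22 fell and none rose, with a median of -0.67. This response raises folding capacity when unfolded proteins gather in the secretory pathway. Hspa5, which encodes the chaperone BiP, stood at 15.73 and 15.72 in Trps1+/+ and 14.54 and 14.67 in Trps1F/F (-1.12, SE 0.0952, limma adjusted p = 2.56e-06), and Hsp90b1 at 15.83 and 15.75 and at 14.65 and 14.86 (-1.04, SE 0.103, 8.35e-06). Both Trps1F/F libraries lay about 1 unit below both Trps1+/+ libraries. Manf fell by 0.97, the disulfide isomerases Pdia4 and Pdia6 by 0.92 and 0.76, calreticulin (Calr) by 0.74 and Dnajb11 by 0.70. In the Cdh1+/F;Trps1F/F libraries the median difference of the list from the same Trps1+/+ libraries was -0.82. Of 24 members with a promoter in the table, 9 held the element marked in the sequences of Hspa5 and Hsp90b1 (37.5%), against 35 of 27025 genes (0.13%). Members were chosen as genes of this response and counted whether or not they fell. The share thus describes the list and does not bear on the fall.

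S phase genes rose more often than genes at large, while G2 and mitosis genes rose at about the share of all genes. Of 35 S phase genes 16 rose and none fell (median 0.39): Chaf1b stood at 7.96 and 7.93 in Trps1+/+ and 8.93 and 8.87 in Trps1F/F (0.95, SE 0.128, limma adjusted p = 9.77e-05), Chaf1a rose by 0.79, and the helicase subunits Mcm2 and Mcm4 by 0.62 and 0.56. G2 and mitosis genes rose in 6 of 33 (18.2%, against 14.5% of all genes), and in 1 or 2 without any 1 of the 4 libraries. D cyclins and CDK inhibitors moved both ways, with 5 of 16 rising (3 without Trps1+/+ replicate a or Trps1F/F replicate 1) and 4 falling. Cyclin D1 (Ccnd1) stood at 12.55 and 12.70 and at 14.03 and 14.06 (1.42, SE 0.114, 1.73e-06), while cyclin D2 (Ccnd2) fell by 0.54. Of the inhibitors, Cdkn1a (p21) fell by 0.73 and Cdkn2b (p15) rose by 0.89, and the retinoblastoma gene Rb1 fell by 0.87. Cdkn1b (p27) rose by 0.39 and Cdkn1c (p57) fell by 1.10, both calls being lost without Trps1+/+ replicate b (0.29 and -1.01) or Trps1F/F replicate 2 (0.33 and -1.05). Cholesterol synthesis genes rose in 11 of 23 and fell in 1 (rises in 5, 4 and 7 without Trps1+/+ replicate a, Trps1F/F replicate 1 and Trps1F/F replicate 2), the fall being that of the SREBP regulator Insig1 (fell by 0.53). Immediate early genes rose in 9 of 26 and none fell (14 and 2 when only the 4 libraries were fitted), among them Atf3 (1.21), Klf6 (0.77) and Jun (0.71). In other lists few genes moved: 1 of 38 cytosolic ribosomal protein genes fell, and 1 of 30 nuclear genes of oxidative phosphorylation rose, and neither was called without Trps1+/+ replicate a or either Trps1F/F library.

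Of 14 tested GATA factors and cofactors, Trps1 included, 3 rose and 4 fell (2 without Trps1+/+ replicate a or Trps1F/F replicate 2, and 1 with quantile normalization). Gata3 was not called (10.71 and 10.74 in Trps1+/+, 10.70 and 10.50 in Trps1F/F, limma adjusted p = 0.401). Zfpm1, which encodes the GATA cofactor FOG1, stood at 7.71 and 7.85 in Trps1+/+ and 9.61 and 9.44 in Trps1F/F (1.74, SE 0.141, 1.78e-06). Gata2 and Gata6 fell by 1.18 and 1.17. Their calls were lost with quantile normalization (-0.74 and -0.78) and without Trps1+/+ replicate a (-1.10 and -1.05), that of Gata2 also without Trps1F/F replicate 1 (-1.13) and that of Gata6 also without Trps1F/F replicate 2 (-1.02). Of 32 deacetylase and corepressor subunits 10 rose (5 without Trps1+/+ replicate a, 3 without Trps1F/F replicate 1) and 2 fell (1 without any 1 of the 4 libraries). The deacetylase Hdac3 stood at 11.35 and 11.30 and at 12.05 and 12.04 (0.73, SE 0.0659, 4.40e-06), and Hdac9 fell by 1.55. Retinoid genes moved both ways, 7 of 18 up and 8 down: Cyp26a1, which degrades retinoic acid, fell by 5.56 from 278 reads to 4, whereas the oxidoreductase Rdh10 rose by 1.15.

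Growth factor pathways also held opposite movements, and the part of the lower fibroblast and macrophage marker shares in them was not tested. Of 18 IGF genes 10 fell and 3 rose: the ligand Igf1 stood at 9.19 and 8.91 in Trps1+/+ and 6.78 and 6.71 in Trps1F/F (-2.30, SE 0.146, limma adjusted p = 2.28e-07), the binding proteins Igfbp5, Igfbp3 and Igfbp7 fell by 1.23, 1.39 and 1.39, and the adaptor Irs1 rose by 0.90. In the BMP list 14 of 28 fell and 4 rose (2 without Trps1+/+ replicate a or Trps1F/F replicate 2, 1 without Trps1F/F replicate 1), with the receptor Bmpr1b down by 2.18 and the antagonists Chrd and Bmper by 1.54 and 1.70, while Id4 rose by 0.84. Of 37 Wnt pathway genes 10 fell (6 without Trps1F/F replicate 2) and 7 rose. The Dishevelled-binding inhibitor Nkd2 stood at 12.33 and 11.91 and at 14.57 and 14.61 (2.47, SE 0.124, 3.54e-08), and the secreted Wnt inhibitors Sfrp2 and Wif1 fell by 2.72 and 1.98. Mecom, a zinc finger transcription factor of the developmental list, stood at 5.90 and 5.56 and at 8.87 and 9.03 (3.22, SE 0.146, 1.52e-08).

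The same genotypes at day 28 share no library with day 14. There, 3151 genes rose (19.9% of those tested) and 3705 fell (23.4%). Of the genes that rose at day 14, 53% also rose at day 28 (38.8% of the day 28 rises) and 5.94% fell there, and of the genes that fell at day 14, 63.9% also fell at day 28 (49% of the day 28 falls) and 3.95% rose there. The difference between days was tested as an interaction: 1541 genes (9.72%) had a more positive difference at day 14 and 1304 (8.22%) a more negative one. These counts depended on single libraries, against 2845 calls in all. Without the day 14 Trps1+/+ replicate a there were 1087, without the day 14 Trps1F/F replicates 1 and 2 in turn 1049 and 1728, without the day 28 Trps1+/+ replicate b 1844 and without the day 28 Trps1F/F replicate 2 1831.

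The unfolded protein response had opposite directions on the 2 days. At day 28, 14 of its 28 members rose and 3 fell, with a median of 0.26 against -0.67 at day 14, and 20 members had a called difference between days, all more negative at day 14. Hspa5 stood at 13.68 and 13.69 in Trps1+/+ and 14.05 and 14.23 in Trps1F/F at day 28, and its differences at the 2 days differed by -1.57 (SE 0.135, limma adjusted p = 7.61e-05). The Trps1+/+ libraries were thus about 2 units higher at day 14 than at day 28, and the Trps1F/F libraries less than 1 unit higher. For Hsp90b1 the difference between days was -1.70 (SE 0.145, 7.61e-05).

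Cell division separated the days more widely. Of the 33 G2 and mitosis genes 32 rose at day 28, with a median of 2.11 against 0.31 at day 14, and all 32 had a called difference between days, also when any 1 library was left out. Kif11, a motor of the mitotic spindle, stood at 8.82 in both Trps1+/+ libraries and 8.99 and 8.92 in Trps1F/F at day 14, and at 8.64 and 8.06 and at 10.73 and 10.66 at day 28. The groups thus lay close together at day 14 and about 2 units apart at day 28. The day difference was -2.21 for Kif11 (SE 0.28, limma adjusted p = 0.000563) and -2.39 for Ccna2, which encodes cyclin A2. Cholesterol synthesis genes rose in 23 of 23 at day 28 (median 1.05 against 0.28), and 17 differed between days. S phase genes rose in 34 of 35 at day 28, and 21 differed between days (12 without the day 14 Trps1F/F replicate 1). Interferon genes fell on both days, 27 of 36 at day 14 and 30 of 36 at day 28.

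**Figure D5:**
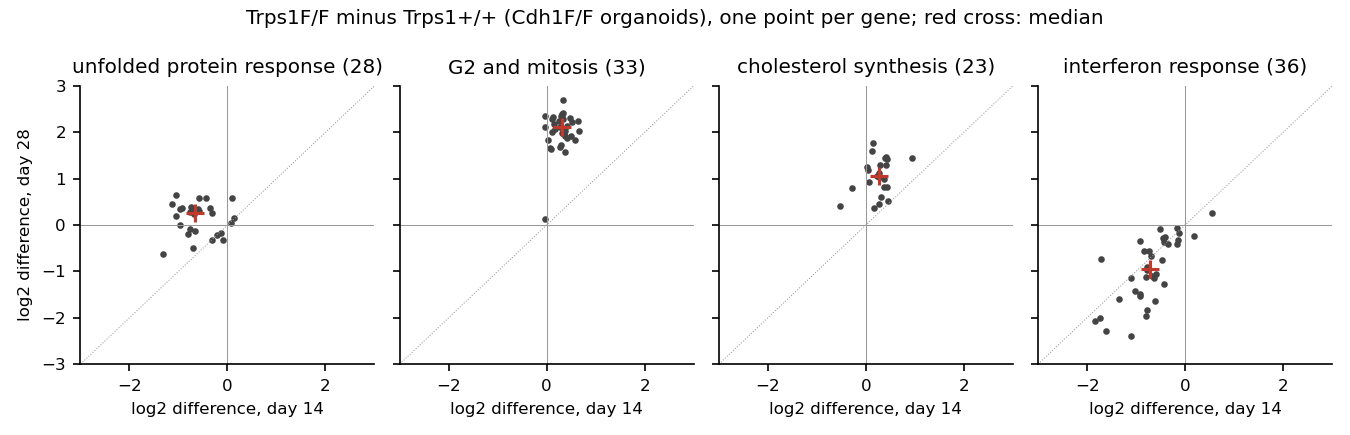
Difference between Trps1F/F and Trps1+/+ in Cdh1F/F organoids at day 14 (horizontal) and day 28 (vertical), on the log2 scale, 1 point per gene for 4 gene lists, with the list median as a red cross and a dotted line of equal differences. Unfolded protein response genes lie mostly left of zero at day 14 and mostly above it at day 28. G2 and mitosis genes lie near zero at day 14 and near 2 at day 28. Interferon genes lie mostly below zero on both axes.

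Single genes with large differences between days were of both kinds. Cpm, a membrane carboxypeptidase, rose by 2.11 at day 14 and fell by 0.58 at day 28 (day difference 2.69, limma adjusted p = 7.67e-05). Cdsn, a protein of cornified cell contacts, rose by 1.17 and fell by 1.32 (2.50, 0.000682). In the other direction, Csn3 fell by 1.59 at day 14 and rose by 0.78 at day 28 (-2.37, 0.000104), and Clca3a2 rose on both days but by less at day 14 than at day 28, where it rose by 9.68 (-2.89, 0.000224). The laminin chain Lama4 fell at day 14 and was not called at day 28 (0.20, limma adjusted p = 0.0885), with a day difference of -1.67.

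At day 14 the Trps1F/F organoids were also compared with the Cdh1+/F;Trps1F/F organoids, to ask whether the 2 genotypes with floxed Trps1 differ. Trps1 itself stood lower in Cdh1+/F;Trps1F/F, as given above, so Cdh1 dose and Trps1 level cannot be told apart here. Between them 3016 genes (19%) were higher and 3422 (21.6%) lower in Cdh1F/F. Of these calls 46.8% were higher in Cdh1F/F with the deposited scaling and 57.0% with quantile normalization, so the balance depends on the scaling. This comparison shares the Cdh1F/F;Trps1F/F libraries with the one above, so values are given side by side only. Among the genes with the largest rises, Pmaip1 stood at 7.72 and 8.04 in Cdh1+/F;Trps1F/F, inside or just above the range of Trps1+/+, and 2.88 below Cdh1F/F;Trps1F/F (limma adjusted p = 9.10e-08), and Synpr stood at 4.37 and 4.16 (difference 4.71, 4.05e-08). Fyb stood at 9.79 and 10.07, with no called difference (0.04, 0.813), and Clu at 17.19 and 17.31, 0.38 above Cdh1F/F;Trps1F/F (0.0154). Among genes lower in Cdh1F/F;Trps1F/F, the collagen gene Col3a1 stood at 18.75 and 18.56 in Cdh1+/F;Trps1F/F (difference -7.55, 3.80e-11) and Cntn1, which encodes a neural cell adhesion protein, at 12.81 and 12.64 (-8.38, 3.93e-11). Keratocan (Kera) had no reads in Cdh1F/F;Trps1F/F and 8 in Trps1+/+, at least 2.62-fold lower counted against a floor of 3 reads over the group, and stood at 9.27 and 9.34 in Cdh1+/F;Trps1F/F. On the basal side Krt17 and Dsg3 were higher in Cdh1F/F;Trps1F/F by 3.93 and 4.28. Fibroblast markers, Col3a1 among them, made up 3.60% and 3.17% of reads in Cdh1+/F;Trps1F/F and basal markers, Krt17 among them, 0.382% and 0.393%. Skeletal muscle markers made up 0.124% and 0.14% there and macrophage markers 0.151% and 0.153%. The part of these shares in the differences was not tested.

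The authors' deposited table of their own test of this comparison holds 16200 genes with an adjusted p, of which 2137 were higher and 2619 lower at 0.05. Of the limma rises 87.5% were rises in the authors' deposited table, of the limma falls 85.2% were falls there, and 0 genes were called in opposite directions. Its log2 fold changes for the leading genes were 6.68 for Clca3a2, 3.97 for Clu, -3.54 for Il33 and -3.06 for Col3a1, all from the authors' deposited table. For genes with few reads its values were smaller in size, with 5.55 for Clca3a1 and -4.33 for Cyp26a1 in the authors' deposited table.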

How the data were processed

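RNA-seq of 12 organoid libraries in 6 groups was used. TopHat, HTSeq and the build GRCm38 are named for these counts, per the submitters' processing notes. Their versions, the annotation and the strand setting are not given in the sources used. The deposited values are log2(normalized count + 1), which the authors scaled over the organoid libraries. In each library 1 read has a fixed worth, so reads could be recovered as whole numbers for 100% of values (tolerance 0.01 reads or a share of 1e-05), and the 4 libraries held 21116526 to 23529391 reads. The authors' deposited table gives a log2 fold change, its standard error, a p-value and an adjusted p-value per gene, per the file headers, and a mean normalized count (a signal per gene, per the file headers) that was not used. The 2 Trps1+/+ columns carry the same replicate header, so these libraries are called replicates a and b in column order.

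The model was limma 3.58.1 in R 4.3.3 (lmFit, eBayes with trend) over all 12 libraries. It tested 15860 of 24186 genes, those with a normalized count + 1 of at least 10 in at least 2 libraries, with Benjamini-Hochberg adjustment. Rows with 14 date-like symbols and 1 without a symbol were left out. Read floors (3 reads over a group) cover counting error only. Reference coordinates came from GENCODE on GRCm38 and promoters from RefSeq. The fit was tested on simulated data.

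Named genes were Trps1 and Cdh1, the 15 largest rises and falls at day 14 that were called, did not overlap between groups and were above the median level, from each of 62 gene lists the 6 members with the smallest p, all members called against the majority and all members of lists of up to 16, and the 8 largest differences in each direction between days and between Cdh1 genotypes. Some genes and 1 promoter that meet this rule are not reported here. The members and lists were chosen with earlier results of these data known. Alternatives were the pseudocount, filter, scaling, variance model, libraries fitted and each library left out.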

Additional observations from a re-analysis of the deposited data

Results flagged for a closer look

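The genotype difference itself differed between day 14 and day 28 for 2845 of 15860 genes by the limma interaction test, and the named genes among them are given here with the day 14 difference minus the day 28 difference on the log2 scale. Genes that fell on both days, with a more negative difference at day 14, were Reg3g (-2.91), Mmp13 (-1.15), Csn1s1 (-1.13), Igfbp3 (-0.89), C1ra (-0.76) and Plod2 (-0.44). Genes that fell on both days, with a more positive difference at day 14, were Dpep1 (1.67), Igfbp5 (1.21), Col1a2 (1.16), Des (1.07), Lum (0.90), Tagln (0.84), Ctgf (0.75) and Bgn (0.53). Genes that fell at day 14 and were not called at day 28, with a more negative difference at day 14, were Lama4 (-1.67), P4ha1 (-1.13), C1s1 (-1.10), Lamb1 (-1.04), Car2 (-1.01) and B2m (-0.58). Genes that fell at day 14 and rose at day 28, with a more negative difference at day 14, were Csn3 (-2.37), Hsp90b1 (-1.70), Hspa5 (-1.57), Manf (-1.32), Pdia4 (-1.28), Calr (-1.14), Dnajb11 (-1.06), Pdia6 (-1.04) and Ccnd2 (-0.98). The same held for Insig1 (-0.93) and Cd14 (-0.64). Genes that were not called at day 14 and rose at day 28, with a more negative difference at day 14, were Ccna2 (-2.39) and Kif11 (-2.21). Genes that rose at day 14 and fell at day 28, with a more positive difference at day 14, were Cpm (2.69), Cdsn (2.50), Acta2 (0.90) and Erbb2 (0.82). Genes that rose at day 14 and were not called at day 28, with a more positive difference at day 14, were Fbln5 (1.19), Pvrl4 (0.93), Rdh10 (0.91), Ltbp4 (0.76), Prss8 (0.75), Sox9 (0.71), Loxl4 (0.70), Lama5 (0.67) and Sox10 (0.61). Genes that rose on both days, with a more negative difference at day 14, were Clca3a2 (-2.89), Ltf (-1.56), Mecom (-1.14), Dsc2 (-0.91), Vcan (-0.80), Scara3 (-0.71) and Mcm4 (-0.61). Genes that rose on both days, with a more positive difference at day 14, were Rnase1 (1.97), Cidea (1.30), Jam2 (1.13), Lipk (1.02), Cldn4 (0.91), Frem2 (0.85), Ovol1 (0.85), Crb3 (0.78) and Clu (0.75). The same held for Wfdc2 (0.68), Thbs1 (0.66), Zfpm1 (0.64), St14 (0.57), Lmod1 (0.56), Nkd2 (0.55), Spint1 (0.45) and Erbb3 (0.39). Groups of 2 libraries are too small for a test of single libraries that stand apart.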

How the results depend on the processing

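The number of genes called at day 14 was 5145, and it was 4594 to 5944 under the other settings that kept all 4 libraries. Leaving out each of them in turn gave 3330 to 4300 calls. The day 28 comparison had 6856 calls (4908 to 6464 with a library left out), and the comparison of Cdh1 genotypes 6438 (4683 to 5259). The least stable count was that of genes whose difference differed between days, with 2845 calls, 1664 without a variance trend and 1049 to 3433 with a library left out. The cause was not tested. Of 213 named genes, 210 were called at day 14, and 19 of these lost the call in at least 1 alternative. The difference of Ccna2 at day 14, which was not called, was -0.03 and ranged from -0.08 to 0.02 with a library left out, turning positive without Trps1F/F replicate 2. With a library left out, its group has 1 sample, which is assumed to vary like the other groups. The test on the recovered reads (voom in limma) was chosen after seeing the data and gave 5321 calls at day 14. The planned count models on recovered reads (edgeR and DESeq2) were not run, because the deposited values are log2 values. No paired analysis was possible because both Trps1+/+ columns carry the same replicate header, so the columns give no numbers to pair. Genes with few reads are the limit of depth here: Cyp26a1 and Clca3a1 rest on 4 and 11 reads in their lower group.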

Other observations

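The 2 pairs of neighbouring genes among the largest rises were looked at after their values had been seen. Clca3a1 and Clca3a2 lie 35.6 kb apart on chromosome 3, and Scara3 and Clu 14.5 kb apart on chromosome 14, so that 4 of the leading genes sit at 2 places. Within 150 kb of the first pair the tested neighbour Sh3glb1, an endophilin of membrane traffic, stood at 11.90 and 11.72 in Trps1+/+ and 11.35 and 11.42 in Trps1F/F and fell by 0.43 (SE 0.0925, limma adjusted p = 0.00318). Within 150 kb of the second pair no other tested gene was called: the differences were 0.39 for the mitotic kinase gene Pbk (limma adjusted p = 0.152), 0.53 for the cohesin acetyltransferase gene Esco2 (0.213), 0.20 for Ccdc25 (0.152) and -0.22 for the epoxide hydrolase gene Ephx2 (0.31).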
